A study of Saccharomyces cerevisiae with 8 samples.

Results

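The genes examined here are those of the yeast mitochondrial genome, taken as every feature of the deposited table whose identifier starts with Q0 and a digit, together with the 15S and 21S ribosomal RNAs, that were measured on 2 or more arrays in each strain. Of 28 such identifiers 20 met that rule, out of 6868 features in the table and 6135 with enough values to be tested. The 20 comprise 7 genes of respiratory chain and ATP synthase subunits (COX1, COX2, COX3, COB, ATP6, ATP8 and OLI1), the 2 ribosomal RNAs, 6 reading frames that run into introns of COX1 (AI1, AI2, AI3, AI4, AI5_ALPHA and AI5_BETA), 3 that run into introns of COB (BI2, BI3 and BI4), and 2 further frames known here by identifier alone (Q0182 and Q0255). All 20 had values on all 8 arrays. Of the 8 identifiers that failed, 3 (Q0017, Q0092 and Q0143) had no value on any array and 5 (Q0010, Q0032, Q0142, Q0144 and Q0140, which is VAR1) had too few.

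Mitochondrial DNA of budding yeast encodes the catalytic core of cytochrome c oxidase, cytochrome b of the bc1 complex, membrane subunits of ATP synthase, the ribosomal protein Var1, ribosomal and transfer RNAs, and maturases or endonucleases translated from introns. The remaining subunits of the same complexes are encoded in the nucleus and imported. A dedicated polymerase, Rpo41, with its factor Mtf1 transcribes the mitochondrial genome as units that span several genes, and the messenger RNAs, which lack poly(A) tails, are then cut, spliced and translated inside the organelle with the help of nuclear-encoded activators.

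Total RNA was compared before and 30 min after addition of NaCl to 0.7 M in 3 mutant strains of the W303 background: *snf1*, lacking the AMP-activated protein kinase Snf1 (3 arrays), *cdc14-3*, a temperature-sensitive allele of the mitotic exit phosphatase CDC14 (2 arrays, numbered replicates 2 and 3), and the *cdc14-3 snf1* double mutant (3 arrays). All strains grew in rich YPD medium at 25 °C and were shifted to 35 °C before salt was added at that temperature. For replicate 1 of both *snf1* and *cdc14-3 snf1* the shift lasted 90 min, and on the remaining 6 arrays it lasted 2 h, so the heat time and the first replicate cannot be told apart. On every array the treated sample carried the same dye, and any dye bias would enter each response but cancel in a difference between strains.

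Each value is a log ratio of NaCl-treated over unstressed RNA from 1 pair of samples, taken here as log2 with the treated sample on top. Base and direction are likely rather than stated: the osmotically induced genes STL1, a glycerol importer, and GPD1, which makes glycerol 3-phosphate, read 5.80 to 7.51 and 2.81 to 4.11 on the 8 arrays. A value gives the change on salt addition and not the level of an RNA, the unstressed cells had been at 35 °C for a shorter time than the treated ones, and wild-type arrays were not analysed here. In these bulk samples, fewer mitochondrial genomes per cell and less RNA from each cannot be told apart.

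Array medians lay within 0.001 of 0, and 6165 to 6776 features had a value on each array. The 90 min arrays stood apart from their own strains. Across 6096 features with values on all arrays, *snf1* replicate 1 correlated more closely with *cdc14-3 snf1* replicate 1 (r = 0.90) than with the other *snf1* arrays (r = 0.77 for both), while the other *snf1* arrays had an r of 0.88 with each other. Features of 1 array share labelling, hybridization and scaling, and these r values are descriptions only. Calls of these genes in *cdc14-3 snf1* are therefore given with and without its 90 min array. Calls with the 2 h arrays alone, which leave out both 90 min arrays, are counted further below for all 3 strains.

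The mitochondrially encoded RNAs were mostly lower after NaCl, and by far the lowest values came from a single array. Of 160 member values 141 were below 0, and at 2 h 113 of 120. The median over the 20 members was 0.04, -0.80 and -0.42 on *snf1* replicates 1, 2 and 3, -0.31 on both *cdc14-3* arrays, and -1.88, -0.49 and -0.70 on *cdc14-3 snf1* replicates 1, 2 and 3. All 20 members had their lowest value on *cdc14-3 snf1* replicate 1, the 90 min array, against 7.17% of all features that were lowest there. Of the 20, 18 lay more than 0.5 below the next lowest array, a margin that was not counted over all features. On that array 0.782% of features lay below the member median and 19 of 20 members lay among the lowest 10% of features; on the other 7 arrays between 10.4% and 56.2% of features lay below it. The opposite held for the other 90 min array: 13 of the 20 had their highest value on *snf1* replicate 1 (18.7% of all features).

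**Figure D1:**
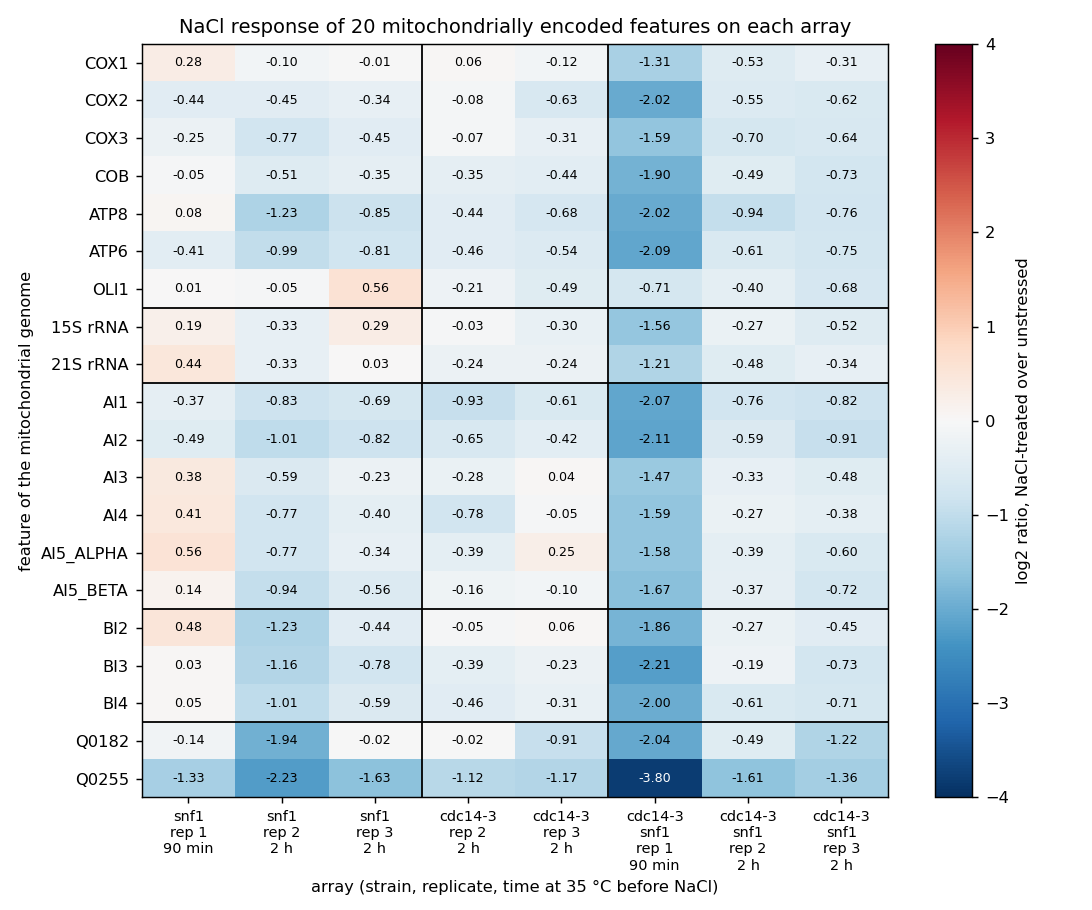
Log2 ratio of NaCl-treated over unstressed RNA for the 20 mitochondrially encoded features (rows, grouped by role) on each of 8 arrays (columns, by strain, replicate and time at 35 °C); colour and printed number give the value. The column of *cdc14-3 snf1* replicate 1 is the lowest in every row, with a median of -1.88, and that of *snf1* replicate 1 holds 13 of the 20 highest values.

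**Figure D2:**
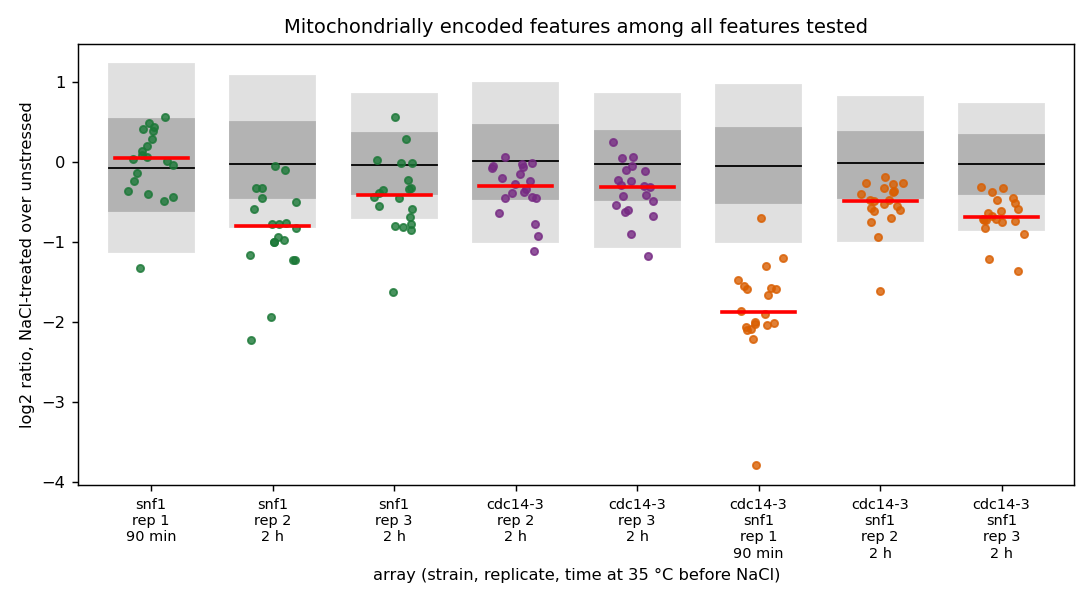
The 20 members (points) on each array, with their median (red line), over the 10th to 90th percentile (light grey), the 25th to 75th percentile (dark grey) and the median (black line) of all features tested; the vertical axis is the log2 ratio. On *cdc14-3 snf1* replicate 1 only OLI1, at -0.71, lies inside the light grey band.

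Cytochrome c oxidase, the terminal enzyme of the respiratory chain, takes its catalytic core from COX1, COX2 and COX3. COX1 read 0.28, -0.10 and -0.01 in *snf1* replicates 1 to 3, 0.06 and -0.12 in *cdc14-3* replicates 2 and 3, and -1.31, -0.53 and -0.31 in *cdc14-3 snf1* replicates 1 to 3. All 3 double mutant arrays lay below the 5 arrays of the single mutants, and the *snf1* and *cdc14-3* arrays overlapped. The COX1 response was -0.72 ± 0.52 in *cdc14-3 snf1* (SD, n = 3; limma adjusted P = 0.0111), 0.06 ± 0.20 in *snf1* (n = 3; adjusted P = 0.814) and -0.03 ± 0.13 in *cdc14-3* (n = 2; adjusted P = 0.922). COX2, which carries the binuclear copper centre, read -0.44, -0.45 and -0.34 in *snf1*, -0.08 and -0.63 in *cdc14-3*, and -2.02, -0.55 and -0.62 in *cdc14-3 snf1*, in the same replicate order. At 2 h both double mutant values lay below those of *snf1* and within the range of *cdc14-3*. COX3 read -0.25, -0.77 and -0.45 in *snf1*, -0.07 and -0.31 in *cdc14-3*, and -1.59, -0.70 and -0.64 in *cdc14-3 snf1*. All COX3 values were below 0, and the double mutant arrays lay below both *cdc14-3* arrays but overlapped with *snf1*. In *cdc14-3 snf1*, COX2 fell by 1.06 (SD 0.83, n = 3; limma adjusted P = 0.00813) and COX3 by 0.98 (SD 0.53, n = 3; adjusted P = 0.00308). Without its 90 min array the call for COX1 was lost (-0.42; limma adjusted P = 0.0673), and COX2 and COX3 were still called at -0.59 and -0.67 (adjusted P = 0.0269 and 0.0176). With the 2 h arrays alone, which leaves out both 90 min arrays, COX1 was called at the same -0.42 (limma adjusted P = 0.0237). In *snf1* that fit called COX3 (-0.61, limma adjusted P = 0.00763) and not COX1 or COX2.

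COB encodes cytochrome b, the only mitochondrially encoded subunit of the bc1 complex. Its values were -0.05, -0.51 and -0.35 in *snf1*, -0.35 and -0.44 in *cdc14-3*, and -1.90, -0.49 and -0.73 in *cdc14-3 snf1*. COB was below 0 on all 8 arrays, and without the 90 min arrays the 3 strains spanned -0.73 to -0.35. The double mutant response was -1.04 ± 0.76 (SD, n = 3; limma adjusted P = 0.00608), and the responses of *snf1* (-0.30 ± 0.23, n = 3; adjusted P = 0.306) and *cdc14-3* (-0.39 ± 0.06, n = 2; adjusted P = 0.312) did not pass the threshold of 0.05. The double mutant response was -0.61 without the 90 min array (limma adjusted P = 0.0218). With the 2 h arrays alone COB was called lower in all 3 strains. The responses in *snf1*, *cdc14-3* and *cdc14-3 snf1* were then -0.43, -0.39 and -0.61 (limma adjusted P = 0.0211, 0.0277 and 0.00587).

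The membrane part of ATP synthase contains the products of ATP6 and ATP8, which lie side by side downstream of COX1, and the ring subunit encoded by OLI1. ATP8 read 0.08, -1.23 and -0.85 in *snf1*, -0.44 and -0.68 in *cdc14-3*, and -2.02, -0.94 and -0.76 in *cdc14-3 snf1*. ATP6 read -0.41, -0.99 and -0.81 in *snf1*, -0.46 and -0.54 in *cdc14-3*, and -2.09, -0.61 and -0.75 in *cdc14-3 snf1*. Both genes had their highest value on the 90 min *snf1* array and their lowest on the 90 min double mutant array, and on the 2 h arrays the values of *snf1* reached below those of the double mutant. ATP6 was the one core gene whose fall in *snf1* passed the test with all arrays (-0.73 ± 0.30, n = 3; limma adjusted P = 0.0369), and this call was lost in a fit without *snf1* replicate 2 (adjusted P = 0.159) or 3 (0.117) or without either *cdc14-3* array (0.0610 and 0.0521). In *cdc14-3 snf1* the responses were -1.24 ± 0.68 for ATP8 and -1.15 ± 0.82 for ATP6 (n = 3; limma adjusted P = 0.00576 and 0.00539), and without the 90 min array -0.85 and -0.68 (adjusted P = 0.0455 and 0.0177). ATP8 in *snf1* was not called with all arrays (-0.67, limma adjusted P = 0.0704) but was without *snf1* replicate 1 (-1.04, adjusted P = 0.0162). With the 2 h arrays alone both genes were called lower in all 3 strains.

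OLI1 departed from the other core genes. It read 0.01, -0.05 and 0.56 in *snf1*, -0.21 and -0.49 in *cdc14-3*, and -0.71, -0.40 and -0.68 in *cdc14-3 snf1*. The *snf1* arrays lay above all arrays of the other strains, and the 90 min double mutant array was only 0.03 below the next lowest. OLI1 fell in *cdc14-3 snf1* (-0.60 ± 0.17, n = 3; limma adjusted P = 0.00987), and the test was not passed in *snf1* (0.17 ± 0.34, n = 3; adjusted P = 0.349) or *cdc14-3* (-0.35 ± 0.20, n = 2; adjusted P = 0.164). The call in *cdc14-3 snf1* was lost without replicate 1 (-0.54; limma adjusted P = 0.0563) or replicate 3 (-0.56; adjusted P = 0.0616). With the 2 h arrays alone OLI1 was called in that strain at -0.54 (limma adjusted P = 0.0379).

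The 15S and 21S RNAs form the cores of the small and large subunits of the mitochondrial ribosome. The 15S RNA read 0.19, -0.33 and 0.29 in *snf1*, -0.03 and -0.30 in *cdc14-3*, and -1.56, -0.27 and -0.52 in *cdc14-3 snf1*. The 21S RNA read 0.44, -0.33 and 0.03 in *snf1*, -0.24 on both *cdc14-3* arrays, and -1.21, -0.48 and -0.34 in *cdc14-3 snf1*. Values of *snf1* lay on both sides of 0 for both RNAs, and all double mutant values were negative. With all arrays the double mutant responses were -0.78 ± 0.68 (15S, n = 3; limma adjusted P = 0.0211) and -0.67 ± 0.47 (21S, n = 3; adjusted P = 0.0178). Without its 90 min array they were -0.39 and -0.41 (limma adjusted P = 0.138 and 0.130). With the 2 h arrays alone the 21S RNA was called (-0.41, limma adjusted P = 0.0345) and the 15S RNA was not (-0.39, adjusted P = 0.101). VAR1, the gene of a small subunit protein of that ribosome, had a value on only 1 *cdc14-3* array and was not tested; it read 0.02, -1.74 and -0.19 in *snf1*, -0.78 in *cdc14-3* and -2.97, -0.56 and -1.05 in *cdc14-3 snf1*. It too was lowest on the 90 min double mutant array and highest on the 90 min *snf1* array.

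**Figure D3:**
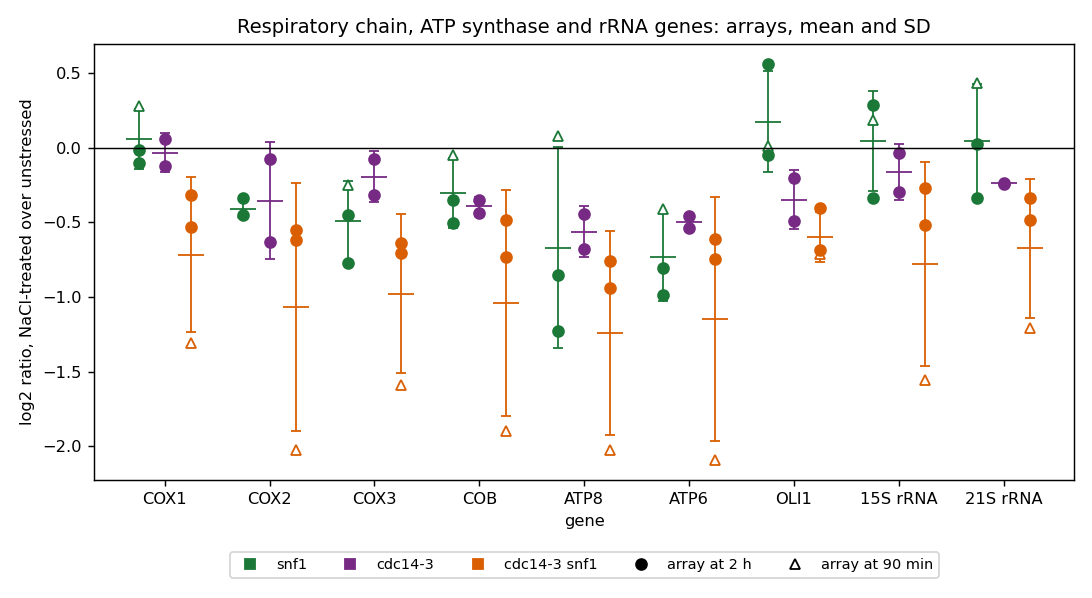
Log2 ratio (vertical axis) of 7 core protein genes and 2 ribosomal RNAs in *snf1* (green, n = 3), *cdc14-3* (purple, n = 2) and *cdc14-3 snf1* (orange, n = 3); points are arrays (open triangles at 90 min, circles at 2 h), horizontal lines are means and bars are 1 SD. The open orange triangle is the lowest point of each gene, from -2.09 for ATP6 to -0.71 for OLI1.

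The intron frames share sequence with their host genes. In the RefSeq annotation (assembly R64) AI1 to AI5_ALPHA start where COX1 starts, AI5_BETA lies within COX1, BI2 to BI4 start where COB starts, and Q0255 overlaps COX2; how probes in shared stretches were assigned is not given in the sources used here, so these features are not independent of each other. AI1 and AI2 encode maturases with reverse transcriptase activity of group II introns, AI3, AI4 and AI5_ALPHA encode homing endonucleases, and BI2, BI3 and BI4 encode maturases that help to splice COB.

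Q0255, for which no role is annotated in the sources used here, had the lowest mean in all 3 strains. It read -1.33, -2.23 and -1.63 in *snf1*, -1.12 and -1.17 in *cdc14-3*, and -3.80, -1.61 and -1.36 in *cdc14-3 snf1*. Its fall passed the test in *snf1* (-1.73 ± 0.46, n = 3; limma adjusted P = 0.00560) and *cdc14-3 snf1* (-2.26 ± 1.34, n = 3; adjusted P = 0.00177) but not in *cdc14-3* (-1.15 ± 0.04, n = 2; adjusted P = 0.0848). Next lowest among the intron and unnamed frames were AI2 in *snf1* (-0.77 ± 0.26; limma adjusted P = 0.0281), AI1 in *cdc14-3* (-0.77 ± 0.23; adjusted P = 0.0594) and Q0182 in *cdc14-3 snf1* (-1.25 ± 0.78; adjusted P = 0.0258). Without the 90 min double mutant array Q0255 was still called in that strain (-1.49; limma adjusted P = 0.00304). The call for Q0182 was lost without that array (-0.85; limma adjusted P = 0.179) or without replicate 3 (-1.26; adjusted P = 0.0852). Q0182 varied most between arrays of 1 strain at 2 h, with -1.94 and -0.02 in *snf1* replicates 2 and 3.

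The highest of these frames were AI3 (-0.15 ± 0.49) and AI5_ALPHA (-0.18 ± 0.67) in *snf1*, BI2 (0.00 ± 0.07) and AI5_ALPHA (-0.07 ± 0.45) in *cdc14-3*, and AI4 (-0.75 ± 0.73) and AI3 (-0.76 ± 0.62) in *cdc14-3 snf1*, with n = 3, 2 and 3. Without the 90 min array AI4 and AI3 stood at -0.33 and -0.41 in *cdc14-3 snf1*. BI2 read 0.48, -1.23 and -0.44 in *snf1*, -0.05 and 0.06 in *cdc14-3*, and -1.86, -0.27 and -0.45 in *cdc14-3 snf1*. AI5_ALPHA read 0.56, -0.77 and -0.34, then -0.39 and 0.25, then -1.58, -0.39 and -0.60 in the same order. Both frames changed sign between the 90 min and the 2 h *snf1* arrays.

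Log ratios of neighbouring or overlapping features were not equal within an array. Within each array AI1, AI2, ATP8 and ATP6 lay below COX1 on 8 of 8 arrays, by a mean of -0.63 ± 0.22, -0.62 ± 0.29, -0.60 ± 0.29 and -0.58 ± 0.27 (SD over arrays, n = 8). For AI3, AI4 and AI5_ALPHA this difference was negative on 5 of 8 arrays and for AI5_BETA on 6 of 8. Relative to COB, BI2 was lower on 2 of 8 arrays, and BI3 and BI4 on 5 of 8. Q0255 lay below COX2 on 8 of 8 arrays, by -1.14 ± 0.45 (n = 8). Such differences compare the responses of separate features and not their levels. The treated samples carried the same dye on every array. A dye bias that differs between features would not cancel in these differences, and it was not tested.

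Over all arrays, 4 of the 20 members fell in *snf1* (ATP6, AI1, AI2 and Q0255; limma, adjusted P under 0.05), where 27.0% of all features tested were called lower. Of these 4, Q0255 was the one called in all 8 fits that left out 1 array. In *cdc14-3* none of the 20 was called lower by limma (22.0% of all features), and 2 were lower at an unadjusted P under 0.05 (25.8% of all features). In *cdc14-3 snf1* 18 of 20 were called lower, against 25.5% of all features; AI4 (adjusted P = 0.0608) and BI2 (0.0652) were not. No member was called higher in *snf1*, *cdc14-3* or *cdc14-3 snf1*, where 24.3%, 18.3% and 20.6% of all features were. The median response of the members was -0.43, -0.35 and -1.01 in *snf1*, *cdc14-3* and *cdc14-3 snf1*, beside -0.06, -0.00497 and -0.03 over all features.

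The count in *cdc14-3 snf1* changed with the arrays that entered the fit, as did the counts in the other strains. Without *cdc14-3 snf1* replicate 1 alone, 8 members were called lower in that strain (19.6% of all features), 9 in *snf1* (26.8%) and 4 in *cdc14-3* (22.1%). Those 8 were COX2, COX3, COB, ATP6, ATP8, AI1, AI2 and Q0255, and the member median in *cdc14-3 snf1* was then -0.57. The medians in *snf1* and *cdc14-3* stayed at -0.43 and -0.35, and the spread shared by all strains in the fit changed. With the 2 h arrays alone, 2 per strain, 14 members were called lower in *snf1* (26.3% of all features), 7 in *cdc14-3* (27.4%) and 14 in *cdc14-3 snf1* (25.9%), with medians of -0.68, -0.35 and -0.57. At 2 h 7 members were called lower in each of the 3 strains: ATP6, ATP8, COB, AI1, AI2, BI4 and Q0255. The share of all features called lower in all 3 strains was not counted, so whether 7 of 20 is unusual was not tested. In that fit ATP8 read -1.04 ± 0.27, -0.56 ± 0.17 and -0.85 ± 0.13, and ATP6 -0.90 ± 0.13, -0.50 ± 0.06 and -0.68 ± 0.09, in *snf1*, *cdc14-3* and *cdc14-3 snf1* (n = 2 each). Both ribosomal RNAs, OLI1, Q0182, COX1 and COX2 were not called in *snf1* or *cdc14-3* at 2 h. Limma array weights, which set 0.214 for *snf1* replicate 1 and 0.479 for *cdc14-3 snf1* replicate 1, gave 11, 4 and 20 members called lower in *snf1*, *cdc14-3* and *cdc14-3 snf1* (28.1%, 29.9% and 32.7% of all features).

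To ask whether the strains differed, the responses were contrasted in 1 fit. No member differed between any 2 strains by limma with all arrays: 0 of 20 for *cdc14-3* minus *snf1* (18.9% of all features called), 0 for *cdc14-3 snf1* minus *cdc14-3* (0.0489%) and 0 for *cdc14-3 snf1* minus *snf1* (0%), with 0, 2 and 4 members at an unadjusted P under 0.05, where 34.8%, 11.0% and 18.5% of all features were. All 20 members were lower in *cdc14-3 snf1* than in either single mutant by their means, with median differences of -0.58 from *snf1* and -0.68 from *cdc14-3* (medians of all features, -0.05 and -0.01). The 3 double mutant arrays lay below both *cdc14-3* arrays for 11 members (17.0% of all features) and below all *snf1* arrays for 4 (9.91%). Of the single mutants, *cdc14-3* exceeded *snf1* without overlap for 1 member (25.3%) and lay below it without overlap for 1 (26.9%). Without the 90 min double mutant array, the median differences were -0.17 from *snf1* and -0.25 from *cdc14-3*.

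On the 2 h arrays alone, the double mutant and *snf1* no longer differed in one direction. The median of *cdc14-3 snf1* minus *snf1* was 0.10, with 8 of 20 members below 0, and none was called by limma (22.7% of all features); 1 had an unadjusted P under 0.05, against 39.1% of all features. Both double mutant arrays lay above both *snf1* arrays for 4 members (29.4% of all features) and below them for 4 (36.4%). The *cdc14-3* responses at 2 h were above those of *snf1* by a median of 0.39, and both *cdc14-3* arrays exceeded both *snf1* arrays for 9 members (33.7%). Limma called 2 members for *cdc14-3* minus *snf1* at 2 h: BI2, higher by 0.84 (SE 0.26; adjusted P = 0.0438), and Q0255, higher by 0.78 (SE 0.23; adjusted P = 0.0351), where 37.4% of all features were called in either direction. Both double mutant arrays at 2 h lay below both *cdc14-3* arrays for 11 members (21.7%).

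The difference between *cdc14-3 snf1* and *snf1* that came closest to the threshold was that of OLI1. It was -0.77 (SE 0.21; limma adjusted P = 0.145) with all arrays. The call was made with array weights (-0.78; limma adjusted P = 0.0185; 27.0% of all features called) and without *snf1* replicate 1 (-0.86; adjusted P = 0.0450; 12.0%).

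Heat time was examined last, as a term for 2 h minus 90 min beside the strain means. Its median over the members was 0.26, no member was called by limma (0% of all features), and 1 had an unadjusted P under 0.05 (18.0% of all features). That single term averaged 2 opposite differences. In *snf1* the members were lower at 2 h than at 90 min by a median of -0.60, and limma called 1 (ATP8, -1.12, SE 0.24; adjusted P = 0.0499; 4.83% of all features called in either direction), with 10 at an unadjusted P under 0.05 (30.1%). In *cdc14-3 snf1* they were higher at 2 h by a median of 1.22. Limma called 0 there, as it called 0 of all 6135 features, and 18 members had an unadjusted P under 0.05 (14.1% of all features). Replicate 1 lay below both other arrays of *cdc14-3 snf1* for 20 members (38.0% of all features) and above both others of *snf1* for 16 (39.0%). The 16 members showed both patterns, as did 13.4% of all features. The difference between the heat terms of the 2 strains, a contrast chosen after the values were seen, had a median of 1.88. Limma called 0 of 20, as it called 0 of all 6134 features, with 18 members and 1251 features (20.4%) at an unadjusted P under 0.05 and a smallest adjusted P among members of 0.110. Each strain had 1 array at 90 min and the fit left 3 residual degrees of freedom.

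The 90 min arrays of *cdc14-3 snf1* and *snf1*, 1 of each, were alike over all features but not for the mitochondrial genome. Set against each other, with no replicate check, the members were lower in *cdc14-3 snf1* by a median of -1.83, from -2.47 for Q0255 to -0.72 for OLI1, while the median of all features was 0.02. All 20 were below 0, as follows from each being lowest on that *cdc14-3 snf1* array. Of them 19 were below the 5th percentile of all features, -0.83. This pair was outside the planned comparisons and was set side by side with the values above known, so it adds no separate support. The corresponding differences at 2 h put none of the 20 below the 5th percentile.

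Nuclear-encoded subunits of the same complexes had differences near or above 0 in that pair. In the 90 min pair the mitochondrially encoded subunits of cytochrome c oxidase had a median difference of -1.59 (3 of 3 below 0) and the 9 nuclear ones 0.29 (1 of 9 below 0). COB differed by -1.86, and the 9 nuclear subunits of the bc1 complex had a median of 0.21 with 0 of 9 below 0. For ATP synthase the medians were -1.68 (3 of 3 below 0) and 0.23 (0 of 14), and for the mitochondrial ribosome -1.69 for the 2 RNAs and 0.36 for 54 nuclear-encoded proteins (7 of 54 below 0). At 2 h the subunits of both origins overlapped in every complex, with COB at -0.18 and its nuclear partners at a median of 0.36. The comparisons at 90 min set 1 array against 1 array and carry no test. The signs of the mitochondrially encoded subunits there follow from the double mutant array being the lowest for each of them.

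**Figure D4:**
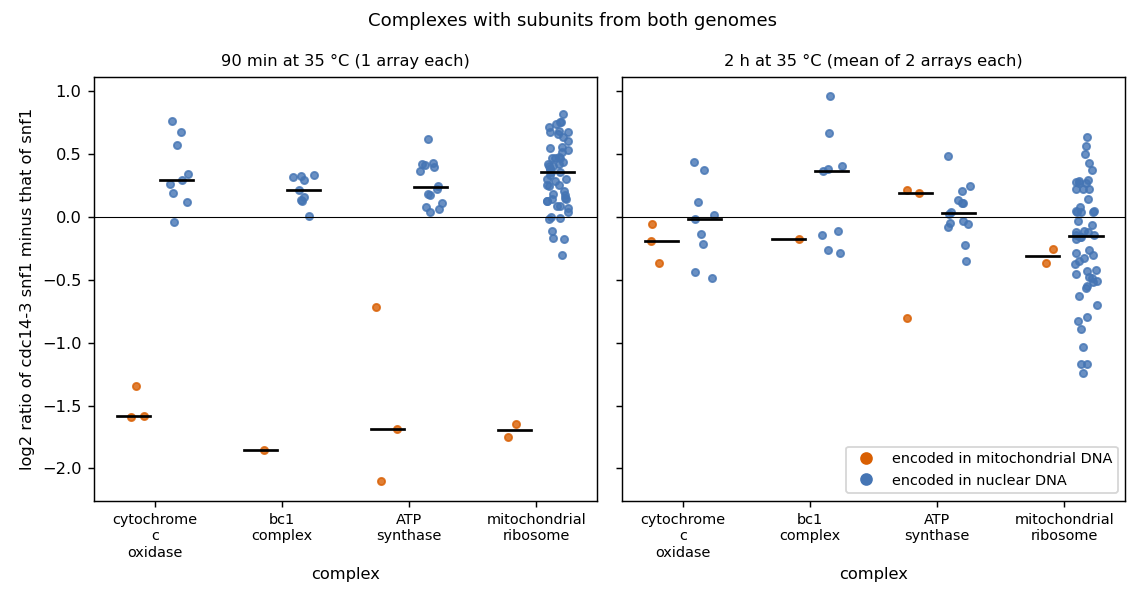
Difference in log2 ratio between *cdc14-3 snf1* and *snf1* (vertical axis) for subunits encoded in mitochondrial DNA (orange) and nuclear DNA (blue) of 4 complexes, at 90 min (left, 1 array each) and 2 h (right, means of 2 arrays each); points are genes and black lines medians. At 90 min every orange point lies below every blue point, and at 2 h the colours overlap.

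The members varied together from array to array. Over the 8 arrays the median correlation between pairs of members was 0.88, which fell to 0.63 without *cdc14-3 snf1* replicate 1 and to 0.48 without both 90 min arrays (190 pairs). With all arrays BI4 followed the mean of the other members most closely (r = 0.99) and OLI1 least (r = 0.48). These are descriptions over 8 arrays of 3 strains, with features that in part share sequence.

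Genes of the nucleus that act on mitochondrial DNA and RNA were taken as lists, whose counts stand beside 24.3% of all features called higher and 27.0% lower in *snf1*, 18.3% and 22.0% in *cdc14-3*, and 20.6% and 25.5% in *cdc14-3 snf1*. Of 16 tested genes of mitochondrial RNA synthesis and processing, 3 were called higher and 8 lower in *snf1*, 1 and 5 in *cdc14-3*, and 2 and 4 in *cdc14-3 snf1* (limma; medians -0.39, -0.27 and -0.14). NAM2, the mitochondrial leucyl-tRNA synthetase that also assists intron splicing, fell by 1.35 in *snf1* (SD 0.27, n = 3; limma adjusted P = 0.000180), and DSS1, the exoribonuclease of the mitochondrial degradosome, by 0.83 (SD 0.55, n = 3; adjusted P = 0.00596). NAM2 was also called lower in *cdc14-3* (-0.54, limma adjusted P = 0.0363) and *cdc14-3 snf1* (-0.51, adjusted P = 0.0170). Its call in *cdc14-3 snf1* was lost without the 90 min array of that strain (-0.40, limma adjusted P = 0.105). MSS116, an RNA helicase for intron splicing, fell in *cdc14-3* (-0.89 ± 0.35, n = 2; limma adjusted P = 0.00232) and was lower there than in *snf1* by -0.85 (SE 0.21; adjusted P = 0.0242). NCA2, which acts on the ATP8 and ATP6 transcript, rose in *cdc14-3* (1.16 ± 0.24, n = 2; limma adjusted P = 0.000782) and *cdc14-3 snf1* (0.71 ± 0.18, n = 3; adjusted P = 0.00307), and by 0.40 in *snf1* (adjusted P = 0.0363). The NCA2 call in *snf1* was lost with the 2 h arrays alone (0.27, limma adjusted P = 0.136). Within *snf1*, RPM2, the protein subunit of mitochondrial RNase P, was lower at 2 h than at 90 min by -1.01 (SE 0.21; limma adjusted P = 0.0485).

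Translational activators of mitochondrial mRNAs showed no common direction in *snf1* (4 of 17 called higher, 4 lower) or *cdc14-3* (3 and 3), and 4 were called higher and 0 lower in *cdc14-3 snf1*, where 20.6% and 25.5% of all features were. PET54, which activates COX3 translation, rose in all 3 strains, by 1.27 ± 0.18, 0.94 ± 0.18 and 0.98 ± 0.10 in *snf1*, *cdc14-3* and *cdc14-3 snf1* (n = 3, 2 and 3; limma adjusted P = 0.000120, 0.00119 and 0.000423). CBS1, an activator of COB translation, also rose in all 3 strains, by 0.90 ± 0.19, 0.75 ± 0.31 and 0.67 ± 0.11 (limma adjusted P = 0.000706, 0.00626 and 0.00326). Of 9 genes of mitochondrial DNA maintenance, 1 was called higher and 2 lower in *snf1* and 1 in each direction in *cdc14-3* and in *cdc14-3 snf1*, against 18.3% to 24.3% of all features called higher and 22.0% to 27.0% lower. MSH1, a MutS homologue of mitochondria, fell in all 3 strains (-1.20 ± 0.19, -0.57 ± 0.13 and -0.75 ± 0.20), and CCE1, a cruciform-cutting endonuclease, rose in all 3 (0.71 ± 0.20, 0.76 ± 0.14 and 0.80 ± 0.21; n = 3, 2 and 3).

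Partner subunits from the nucleus were also counted. In *cdc14-3 snf1*, for cytochrome c oxidase 1 of 9 was called higher and 0 lower, for the bc1 complex 1 and 0 of 9, for ATP synthase 0 and 5 of 14, and for the mitochondrial ribosome 2 and 17 of 54. In *snf1* the counts were 0 and 1, 0 and 2, 0 and 6, and 7 and 21, and in *cdc14-3* 1 and 0, 2 and 0, 0 and 1, and 0 and 24. Over all features 24.3%, 18.3% and 20.6% were called higher and 27.0%, 22.0% and 25.5% lower in *snf1*, *cdc14-3* and *cdc14-3 snf1*. ATP20, a subunit of the ATP synthase dimer interface, read -1.82, -0.94 and -0.51 in *snf1*, -0.07 and -0.49 in *cdc14-3*, and -1.64, -0.41 and -0.997 in *cdc14-3 snf1*. Both 90 min arrays were the lowest for ATP20, whereas the members were lowest on that of the double mutant and 13 of them highest on that of *snf1*. COX5B, an isoform of a cytochrome c oxidase subunit used at low oxygen, rose in *cdc14-3 snf1* (0.66 ± 0.07, n = 3; limma adjusted P = 0.00246) and in *cdc14-3* (0.54, n = 2; adjusted P = 0.0182). QCR8 of the bc1 complex rose in *cdc14-3 snf1* (0.76 ± 0.57, n = 3; limma adjusted P = 0.0204) and in *cdc14-3* (1.14 ± 0.62, n = 2; adjusted P = 0.00927). In *snf1* neither passed the test (0.15 and 0.05; limma adjusted P = 0.312 and 0.873). In *cdc14-3 snf1* limma also called NCA2, PET54, CBS1, MSH1, CCE1, COX5B and QCR8 without its 90 min array, in the same directions.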

How the data were processed

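The authors extracted total RNA, made amino-allyl cDNA coupled to Oyster dyes, with the treated samples on the same dye throughout, and hybridized both to 1 array per replicate. The values are log2 ratios as the authors deposited them, 1 per feature and array, already centred on the array median. Base and direction are inferred from the study's plots and osmotic marker genes. Scanner intensities were not analysed here; normalization steps, how probes were combined into features, cDNA priming and the genome build are not given in the sources used here, so no coordinates or sequences are printed, and missing values were left missing.

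Groups came from the genotype labels. Features measured on 2 or more arrays in each strain entered 1 limma fit (limma 3.58.1, R 4.3.3; lmFit and eBayes, 1 mean per strain, 5 residual degrees of freedom), with Benjamini-Hochberg adjustment over all features tested and a threshold of 0.05. Nothing states that replicates were separate cultures, so P-values rest only on the spread between these samples. That spread was pooled over the strains in a fit and moderated over features, whereas a printed SD is that of 1 strain. For Q0255 in *cdc14-3*, the SD was 0.04 and the SE behind the P-value was 0.48. The fits were tested on simulated data. No arrays were identical.

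Values on every array are given for the core protein genes and rRNAs; of the other reading frames, those called in a strain difference or heat term and the 2 highest and 2 lowest means of each strain are named; of each nuclear list, the 2 largest called changes may be named. BI2, AI5_ALPHA and Q0255 are shown on every array because of their means, and ATP20 was chosen after its values were seen. Members and lists were chosen with earlier results of these data known. Names came from the RefSeq gene table (R64), which matched 17 members by locus tag and both rRNAs by name; NAM1 is listed there as MTF2. Of 17 listed genes of RNA synthesis and processing 16 were tested. Array number (8) limits precision. Alternatives were array weights, 2 h arrays only, heat time as a covariate, a replicate block, separate fits, mean centring, 1 spread for all arrays, other filters on missing values, robust eBayes, heat terms by strain and leaving out each array; the difference of the heat terms was added after the data were seen.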

Additional observations from a re-analysis of the deposited data

How the results depend on the processing

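With 2 or 3 arrays per strain, the calls depended on which arrays entered. In *cdc14-3 snf1* 8 to 20 members were called lower on leaving out each array in turn, the lowest without its replicate 1 (medians -1.25 to -0.57). In *snf1* the range was 1 to 9 (medians -0.68 to -0.20), lowest without *snf1* replicate 2 or 3 and highest without *cdc14-3 snf1* replicate 1, and in *cdc14-3* 0 to 4 (medians -0.35 to -0.31). For *cdc14-3* minus *snf1* these fits gave medians of -0.17 (without *snf1* replicate 2) to 0.39 with 0 called, for *cdc14-3 snf1* minus *cdc14-3* -0.92 to -0.25 with 0 called, and for *cdc14-3 snf1* minus *snf1* -0.84 to -0.17 with 0 to 1 called. The heat term ran from -0.60 (without *cdc14-3 snf1* replicate 1) to 1.22 (without *snf1* replicate 1), with 0 to 1 called; within *snf1* alone it was -0.60 with 1 called, within *cdc14-3 snf1* alone 1.22, and the difference between the strains' terms 1.88. With the 2 h arrays only, 14 members were called lower in *snf1* (26.3% of all features) and 7 in *cdc14-3* (27.4%). In that fit 2 were called for *cdc14-3* minus *snf1* (37.4% in either direction), and the median of *cdc14-3 snf1* minus *snf1* turned to 0.10. Array weights gave 11 lower in *snf1* (28.1% of all features), 4 in *cdc14-3* (29.9%) and 1 for *cdc14-3 snf1* minus *snf1* (27.0% in either direction). Heat time as a covariate gave 1 in *snf1* and 1 in *cdc14-3*, and in *cdc14-3 snf1* it kept 13 of the 18 calls and lost 5. A fit of *cdc14-3* by itself gave 7, and 1 spread for all arrays gave 2 in *cdc14-3* (median -0.36). Where no share of all features stands beside a count in this section, the count shows only how calls moved between fits. Mean centring, which moved arrays by up to 0.155, left the *cdc14-3* median at -0.37. Leaving out *cdc14-3 snf1* replicate 1 left the *snf1* and *cdc14-3* medians at -0.43 and -0.35, the same as with all arrays. The spread, which all strains share in a fit, became smaller. For AI1 in *snf1* the SE was 0.24 with all arrays and 0.13 without that array, at the same estimate of -0.63. Calls in 1 strain thus depended on arrays of another. Other causes of these changes were not tested, beyond the arrays each fit used. Of the single-gene calls in *cdc14-3 snf1*, 298 were kept and 26 lost over all alternatives, and in *snf1* 55 and 17, with none reversed.

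Correlations of deviations over all features were weak and mostly above 0 between same-numbered arrays (-0.21 to 0.26). Between arrays of different number they ran from -0.26 to 0.21. These values do not settle whether same-numbered arrays belong together, and the numbers were not taken as pairs. A replicate block gave 3 members called in *snf1*, 1 in *cdc14-3* (median -0.45) and 17 in *cdc14-3 snf1*. No shares of all features are given for that fit.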

Other observations

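Mitochondrial transfer RNAs lie outside the rule by name but are encoded in the same genome. Of 10 such features 4 had values on all 8 arrays, and 8 of the 10 had their lowest value on *cdc14-3 snf1* replicate 1, the same array as all 20 members. Of features with values on all arrays 7.17% were lowest there, and a feature with fewer values is lowest on a given array more easily. The tyrosine tRNA read -0.76, -0.55 and -0.27 in *snf1*, -0.69 and -1.23 in *cdc14-3*, and -2.34, -0.65 and -0.996 in *cdc14-3 snf1*. The phenylalanine tRNA read 0.91, 0.22 and 1.06, then 1.04 and -0.11, then -1.08, 0.42 and 0.29 in the same order. On the 90 min double mutant array the glutamate tRNA stood at 0.17, its lowest value but above 0, and the lysine tRNA, at -0.43, was not at its lowest.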
